A study of Danio rerio with 18 samples.

Results

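Collagen genes were followed in RNA of zebrafish pronephric duct fragments, and they were chosen by name: every counted RefSeq accession whose zebrafish symbol begins with col, a type number, a and a chain number. Of 60 such symbols in the RefSeq gene table, 36 were counted here as 40 accessions, out of 32820 accessions counted in all. Another 24 symbols had no accession matched here and are not analysed, among them col4a2, col4a5, col4a6, col5a1, col6a1, col6a3, col1a1b, col11a2, col15a1a and col18a1b. The 40 accessions fell into 6 fibrillar, 6 basement membrane, 15 cartilage and notochord and 13 other collagens. These class names are broad labels and carry no statement about the cells sampled. The fibrillar class held types I and V only. The fibril-forming types II, XI and XXVII were placed under cartilage and notochord, together with types VIII, IX and X.

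Collagens are secreted proteins whose chains wind around each other into a rigid helix, and the chain types differ in how the helices then assemble. Fibrillar collagens form the ropes of skin, tendon, myosepta and bone, type IV collagen forms the meshwork of basement membranes under epithelia and around kidney tubules, and types II, IX and XI build the fibrils of cartilage and of the notochord sheath. Fibril-associated and von Willebrand factor A domain collagens sit on or between these networks. The pronephric duct is an epithelial tube lying on a basement membrane, close to the somites, the notochord, the skin and the vessels.

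The embryos had a wild-type genotype apart from a transgene that labels the pronephros, Na, K-ATPase alpha1A4:GFP, which all groups carried. They received either a standard control morpholino or a morpholino against actl6a, a subunit of SWI/SNF-type chromatin remodelling complexes, at the 1-cell stage. A morpholino is an antisense oligonucleotide, and this one blocks translation of its target, so RNA levels of actl6a do not report the knockdown. At 30 hours post fertilization, 15 embryos were dissociated with DTT and collagenase I, and about 10 fragments were picked by eye for their green fluorescence. RNA-seq libraries came from 10 control and 8 actl6a samples, referred to below by group and replicate number. The labels do not say that the replicates came from separate clutches or injections, so p-values measure the spread between these libraries only.

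Library totals ran from 1564673 to 3301873 counts in controls and from 1731521 to 3393310 in actl6a libraries. Markers of the labelled tissue were abundant in both groups. The transporter gene atp1a1a.4, whose promoter names the transgene, reached 1614 ± 334 CPM (counts scaled to a common library total; SD, n = 10) in controls and 1400 ± 184 CPM (n = 8) in actl6a libraries (adjusted p = 0.22, edgeR's quasi-likelihood test). The cadherin gene cdh17 stood at 1128 ± 97 and 1121 ± 95.9 CPM (adjusted p = 0.949). RNA of actl6a itself was 109 ± 15.6 CPM in controls and 139 ± 12.4 CPM after knockdown, a log2 difference of 0.34 ± 0.0887 (SE, adjusted p = 0.0137). RNA of other tissues was present in every library at differing levels. Summed skeletal muscle markers ran from 191 to 10389 CPM in controls and from 676 to 13141 CPM in actl6a libraries. Each group was deposited as its own count table, so any step that differed between the tables cannot be told apart from the morpholino.

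The 40 matched collagen accessions were a small share of these libraries. The 24 unmatched symbols, and any collagen among the 12605 accessions without a symbol, are not in this share, so it is a lower bound. The matched accessions made up 245 to 2076 counts per control library, or 0.0157 to 0.0756% of the counts. In actl6a libraries they made up 542 to 2911 counts, or 0.0231 to 0.0904%. The summed level over all 40 accessions was 159, 368 and 793 CPM at the lowest, median and highest control, and 219, 497 and 966 CPM in actl6a libraries. The groups overlapped over most of this range. A count of 3, taken as the detection floor, was worth 0.909 to 1.92 CPM in controls and 0.884 to 1.73 CPM in actl6a libraries. Of the counts of these 40 accessions, col1a1a took 15.6%, col28a1a 11.5%, col11a1a 9.89%, col4a1 9.72%, col2a1b 7.96% and col5a2a 7.25%. These shares follow transcript length as well as abundance, so they do not rank the genes by expression.

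Knockdown of actl6a was compared with control across 14462 accessions that passed a filter on low counts, of which 18 were collagens. Of those 18, 3 passed an adjusted p of 0.05: col9a1b and col9a2, chains of the cartilage and notochord type IX collagen, were higher in actl6a libraries, and col28a1a, a type XXVIII chain, was lower. Among all tested accessions 16.4% were called, with 7.9% higher and 8.52% lower, so the collagen share of called accessions was near this background. Fitted log2 fold changes were above 0 for 14 tested collagens and below 0 for 4, with a median of 0.72 against 0.01 over all tested accessions. An unadjusted p under 0.05 was reached by 6 collagens and by 4507 accessions in all. Because these are bulk samples, fewer cells of a type and less RNA per cell cannot be told apart in any of these values.

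**Figure D1:**
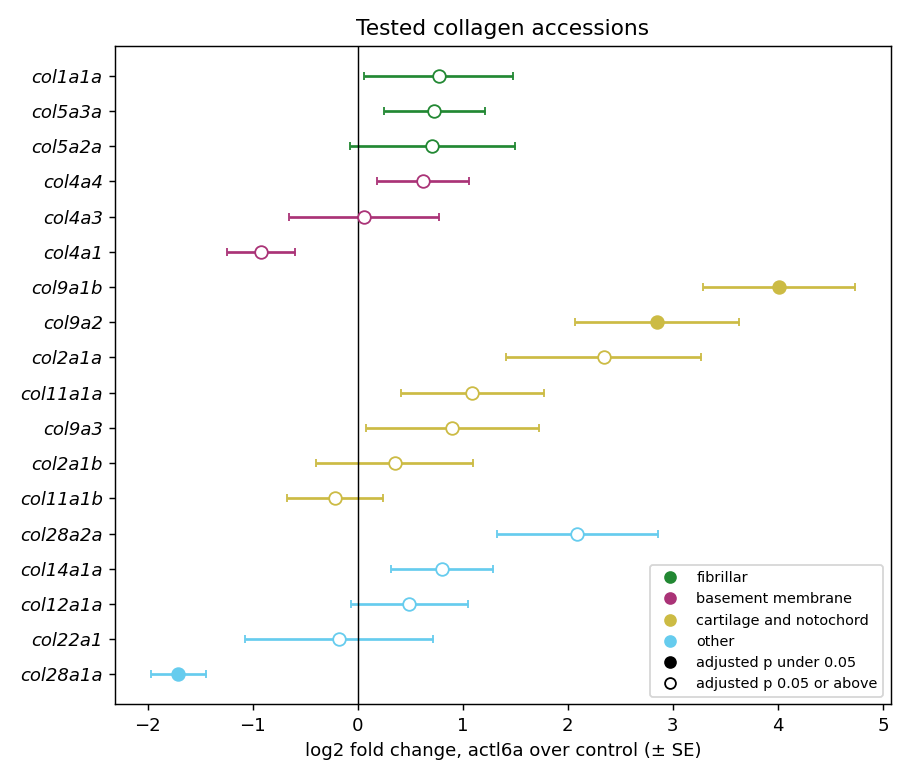
Fitted log2 fold change of actl6a over control libraries (x axis) with its standard error for each of the 18 tested collagen accessions (y axis), coloured by class. Filled points, adjusted p under 0.05, mark col9a1b at 4.01, col9a2 at 2.85 and col28a1a at -1.71, and the 15 open points did not pass.

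The 22 collagens that did not pass the filter held 1 to 245 counts over all 18 libraries, and none averaged more than 5.18 CPM over all of them. They are members like the others, and the filter favours genes that are well counted in either group, so the direction of the 18 that passed does not stand for all 40. The clearest case is col9a1b, which reached 10 counts in 1 control library and 7 actl6a libraries and so passed the filter mainly through the group in which it was high. The groups overlapped in every tested collagen. Across all tested accessions the actl6a libraries lay wholly above the controls in 0.933% and wholly below in 0.837%, so overlap in all 18 does not set the collagens apart.

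Fibrillar collagens were led by col1a1a (NM_199214.1), the main chain of the type I fibrils of skin and myosepta. Levels of col1a1a in controls were 0 at the lowest, 51.9 at the median and 162 CPM at the highest, and in actl6a libraries 6.15, 109 and 147 CPM. In control replicates 3 and 4 no count was recorded, and control replicate 8 had 0.76 CPM, while 7 actl6a libraries lay above the control median. The log2 fold change fitted to these values, 0.77 ± 0.711 (SE, adjusted p = 0.496), was within the spread between libraries. The second type I chain gene, col1a2, was counted once in all libraries against 3510 counts for col1a1a. Because 12605 accessions had no symbol, that count does not show that col1a2 RNA was absent.

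Type V collagen, which copolymerizes with type I and helps set fibril diameter, was counted as col5a2a and col5a3a. For col5a2a (NM_001145782.1) the lowest, median and highest controls had 0, 6.2 and 107 CPM and the actl6a libraries 5.03, 43 and 95.6 CPM. Both groups thus spanned most of the same range (log2 fold change 0.71 ± 0.786, adjusted p = 0.579). The chain gene col5a3a (XM_021469216.1) ran from 0.65 to 24.1 CPM in controls and from 8.85 to 17.9 CPM in actl6a libraries. All 8 actl6a libraries lay above the control median of 4.68 CPM, though below the highest control, and the difference did not pass (0.73 ± 0.483, adjusted p = 0.323). The low counts of col5a2b, 20 in controls and 36 in actl6a libraries, were not tested.

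The summed fibrillar level was 2.6, 66.1 and 276 CPM at the lowest, median and highest control and 29.3, 171 and 231 CPM in actl6a libraries. The 3 controls with the least fibrillar RNA, replicates 4, 8 and 3 at 2.6, 5.7 and 17.4 CPM, were also the 3 with the least skeletal muscle RNA, at 191, 1281 and 314 CPM of summed markers. In the actl6a group, replicates 3, 5, 7 and 8 had 139 to 207 CPM of fibrillar collagen at 754 to 2052 CPM of muscle markers, and replicate 6 had 29.3 CPM at 676 CPM. Of 16 tested muscle markers none was called, and 19 of 27 listed symbols were counted. Mesenchyme markers, of which 17 of 21 symbols were counted, summed to 122 to 597 CPM in controls and 222 to 515 CPM in actl6a libraries. Of 11 tested members 1 was called, or 9.09% against 16.4% of all accessions. It was the transcription factor gene tbx18, at a log2 fold change of 1.90 ± 0.464 (adjusted p = 0.00925). The part of muscle and mesenchyme RNA in the fibrillar levels was not tested.

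**Figure D2:**
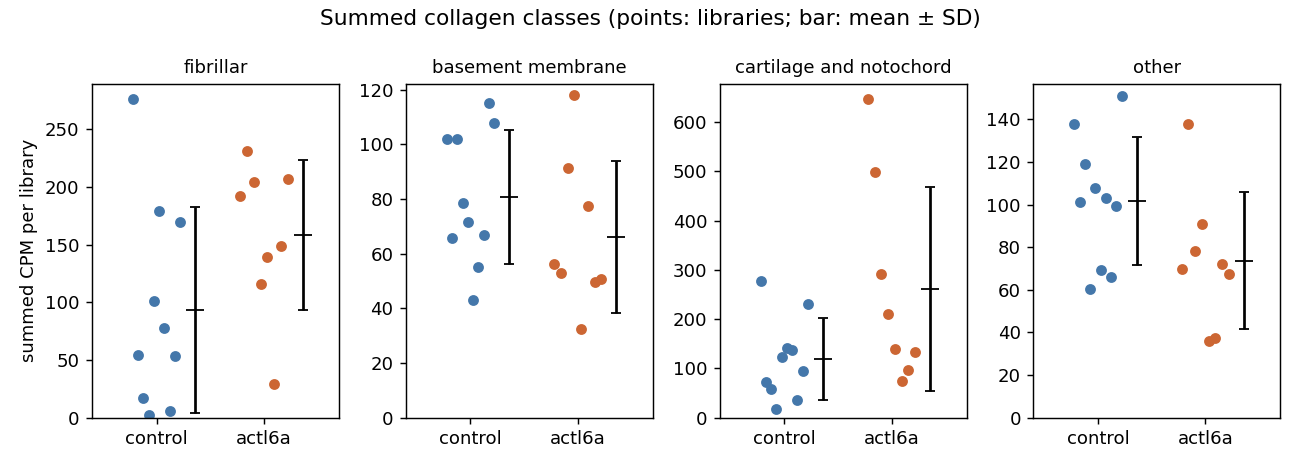
Summed CPM of each collagen class in every library (y axis, linear) for control (n = 10) and actl6a (n = 8); points are libraries and bars the mean ± SD. Fibrillar sums average 93.7 ± 89.1 CPM in controls and 158 ± 65.3 CPM in actl6a libraries, and the groups overlap in every class.

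Basement membrane collagens were carried by type IV chains. The gene col4a1 (XM_688948.9) encodes one of the chains of the ubiquitous type IV network, and its neighbour in the RefSeq annotation, col4a2, was not matched here. Levels of col4a1 were 29.1, 55.7 and 94.8 CPM at the lowest, median and highest control and 13.2, 20.3 and 75.9 CPM in actl6a libraries. In the actl6a group, 5 libraries lay below every control, 7 lay below the control median, and actl6a replicate 4, at 75.9 CPM, stood above it. With a log2 fold change of -0.92 ± 0.324 (SE, adjusted p = 0.057), col4a1 did not pass the threshold. Without actl6a replicate 4 it did, at -1.27 (adjusted p = 0.00676), and also without actl6a replicate 3 (0.0479), control replicate 2 (0.0413) or control replicate 6 (0.0462). These were 4 of 18 fits that each left out 1 library, and the highest adjusted p among the 18 was 0.101. The gene col4a1 also passed by DESeq2 (0.0266), by limma-voom (0.0425) and with library totals in place of TMM factors (0.0426), settings that called 20.9%, 17.3% and 17% of all accessions. Without actl6a replicates 1 and 2 it was -0.75 (adjusted p = 0.176). With marker scores of notochord, mesenchyme and cartilage as covariates, described below, it was -0.63 (0.56). With those of muscle, blood, epidermis and neural markers it was -0.52 (0.665).

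The chains col4a3 and col4a4, which neighbour each other in the genome and in mammals form the specialized network of the glomerular basement membrane, were not called either. For col4a4 (XM_009291835.3) the lowest, median and highest values were 2.25, 17.3 and 39.7 CPM in controls and 16.6, 27.3 and 41.1 CPM in actl6a libraries. Every actl6a library lay above the 5 lowest controls, and the highest values of the groups were close (log2 fold change 0.62 ± 0.437, adjusted p = 0.352). For col4a3 (XM_688921.9) controls ran from 0 to 6.08 CPM and actl6a libraries from 0 to 5.03 CPM, so the groups covered the same range. Its log2 fold change was 0.06 ± 0.718 (adjusted p = 0.967), and the fitted sign changed when single libraries were left out.

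Summed type IV collagen was 79.1 ± 23.4 CPM in controls (SD, n = 10) and 61.7 ± 27.3 CPM in actl6a libraries (n = 8), a difference smaller than either spread. The remaining basement membrane collagens were near the floor. One accession of col18a1a (XM_021478722.1), the precursor gene of endostatin, had 18 counts in controls and 91 in actl6a libraries. In it 4 actl6a libraries lay above every control, and it did not pass the filter on low counts. The record col7a1l, annotated as a noncoding transcript, had 28 counts in controls, 26 of them in a single library, and 6 in actl6a libraries.

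Cartilage and notochord collagens held the largest fold changes. Type IX collagen decorates type II fibrils and is made of chains encoded by col9a1, col9a2 and col9a3 genes. For col9a1b (NM_213264.2), an alpha1 chain, the lowest, median and highest controls had 0, 0.789 and 4.5 CPM, and the actl6a libraries 2.77, 11.3 and 74.3 CPM. Above every control lay 7 of 8 actl6a libraries, and above the control median all 8. Most controls were at or below the detection floor, with 40 counts in all 10 control libraries against 482 in 8 actl6a libraries. The log2 fold change was fitted at 4.01 ± 0.727 (SE, adjusted p = 0.00134).

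For col9a2 (NM_212579.2) the controls ran from 0 through a median of 3.23 to 9.22 CPM, and the actl6a libraries from 1.11 through 7.51 to 94.6 CPM. The rise was carried by actl6a replicates 1, 2 and 3, at 94.6, 80.2 and 19.3 CPM, and the other 5 actl6a libraries lay within the control range. Its log2 fold change was 2.85 ± 0.778 (adjusted p = 0.0177). Without actl6a replicate 1 the call was lost, at 2.21 (adjusted p = 0.0581), and without replicates 1 and 2 together the value was 0.91 (adjusted p = 0.395). By limma-voom with sample weights it was 1.87 (adjusted p = 0.146). The third tested chain, col9a3, was at 1.27, 6.36 and 31 CPM in controls and 0, 6.58 and 77 CPM in actl6a libraries, where again replicates 1 and 2 were the only values above every control. Its log2 fold change was 0.90 ± 0.826 (adjusted p = 0.491), and the untested col9a1a had 47 counts in controls and 93 in actl6a libraries, 46 of them in replicate 1.

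The main fibril chain of cartilage and notochord sheath, type II, is encoded by col2a1a and col2a1b. Most reads of col2a1a were assigned to XM_005166863.4, at 0, 1.83 and 55.6 CPM in controls and 5.7, 28.2 and 120 CPM in actl6a libraries. All 8 actl6a libraries lay above the control median, and control replicate 7, at 55.6 CPM, stood apart from the next control at 13.3 CPM. The fit gave 2.34 ± 0.929 (adjusted p = 0.0907), and without control replicate 7 it gave 3.77 (adjusted p = 0.00784). That was the only 1 of 18 fits leaving out 1 library that passed, and the highest adjusted p was 0.193. By limma-voom with sample weights col2a1a also passed, at 3.30 (adjusted p = 0.0464). Without actl6a replicates 1 and 2 the fit gave 1.33 (adjusted p = 0.409), and with notochord, mesenchyme and cartilage marker scores as covariates 0.11 (adjusted p = 0.977). In the covariate fit the notochord score was shha alone. A second col2a1a accession (NM_131292.1) had 65 counts in controls and 180 in actl6a libraries and was not tested. Its paralogue col2a1b (NM_001281478.1) stood at 0, 21.8 and 114 CPM in controls and 6.15, 41.2 and 92.2 CPM in actl6a libraries, with a log2 fold change of 0.35 ± 0.748 (adjusted p = 0.792), and its sign turned to -0.18 without actl6a replicates 1 and 2.

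Type XI chains nucleate type II fibrils. For col11a1a (NM_001083844.1) the lowest, median and highest values were 0, 23.5 and 83.6 CPM in controls and 2.24, 60.1 and 125 CPM in actl6a libraries. The control median was exceeded in 7 of 8 actl6a libraries, with replicate 6 the exception, and the log2 fold change was 1.09 ± 0.681 (adjusted p = 0.289). For col11a1b controls ran from 3.9 to 49.6 CPM and actl6a libraries from 4.98 to 25.2 CPM, with a log2 fold change of -0.22 ± 0.457 (adjusted p = 0.787). Types VIII, X and XXVII were low. Raw counts summed over 10 control and 8 actl6a libraries were 128 and 109 for col27a1a and 56 and 22 for col27a1b. They were 53 and 24 for col10a1b, a paralogue of the hypertrophic cartilage gene col10a1a. Such totals are not scaled to the number of libraries. Mean levels in controls and actl6a libraries were 4.56 and 5.8 CPM for col27a1a, 2.41 and 1.05 CPM for col27a1b and 1.74 and 1.21 CPM for col10a1b. The vessel and cornea collagen gene col8a1a had 52 counts in controls and 117 in actl6a libraries, 56 and 41 of the latter in replicates 1 and 2, and col10a1a had 13 counts in controls and none in actl6a libraries, which allows up to 0.884 to 1.73 CPM per library.

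**Figure D3:**
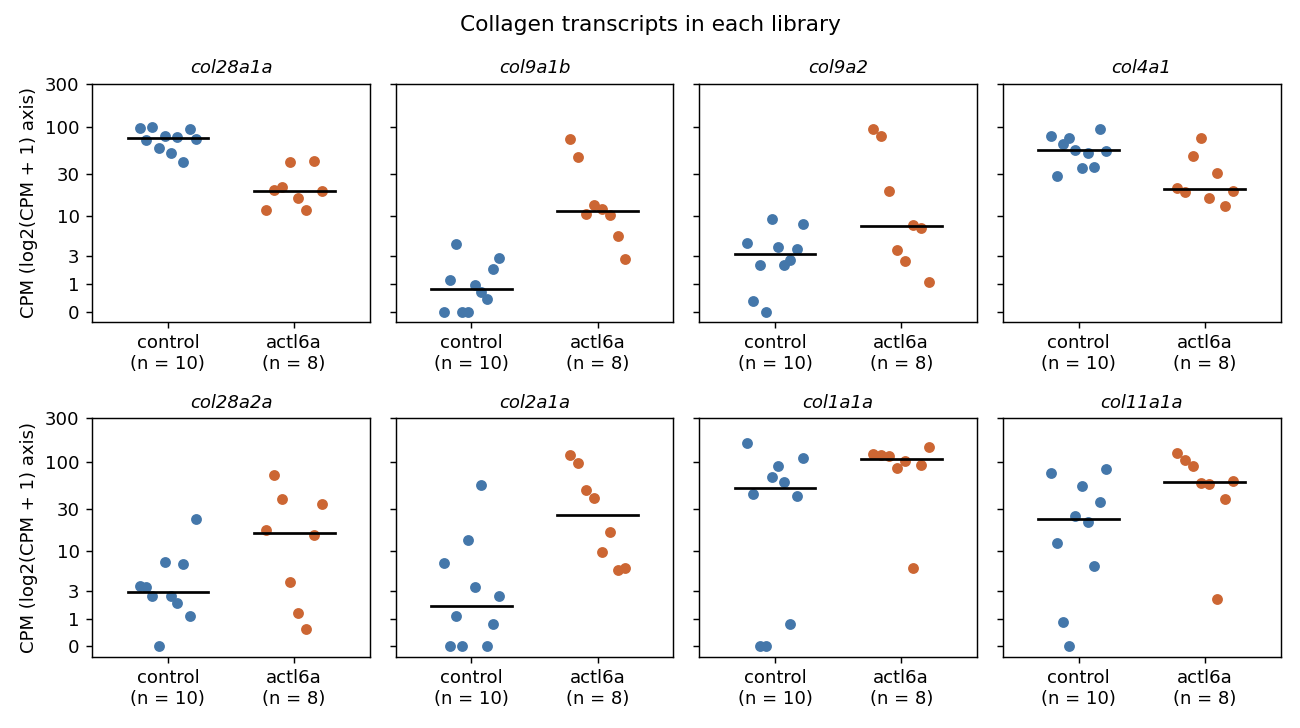
CPM of 8 collagen genes in each control (blue) and actl6a (orange) library, on an axis spaced as log2(CPM + 1); lines are group medians, and the col2a1a panel shows XM_005166863.4. All but 1 actl6a value of col9a1b lie above its highest control of 4.5 CPM, while for col28a1a all but 1 lie below its lowest control of 41.8 CPM.

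Actl6a replicates 1 and 2 stood apart from the rest of their group in this class. Their summed type IX collagen was 261 and 188 CPM, against 3.87 to 45.7 CPM in the other 6 actl6a libraries and 7.15 to 40 CPM in controls. The same libraries had the highest skeletal muscle sums, 13141 and 11149 CPM. Control replicate 1 and actl6a replicate 4 came next, at 10389 and 9557 CPM of muscle markers, and their type IX sums were 14.2 and 29.1 CPM. Actl6a replicates 1 and 2 also had the highest neural sums, 384 and 561 CPM. Neural sums were 85.1 to 187 CPM in the other actl6a libraries and 25.8 to 98.5 CPM in controls. Of 5 tested neural markers 2 were higher in actl6a libraries, among them sox3 at a log2 fold change of 3.47 ± 0.639 (adjusted p = 0.00148). Epidermis markers summed to 1033 to 2581 CPM in controls and 1052 to 6101 CPM in actl6a libraries, with 3 of 13 higher, or 23.1%. Blood markers summed to 124 to 2065 and 333 to 5288 CPM, with 0 of 13 called. Endothelium markers summed to 0 to 15.6 and 9.96 to 36.8 CPM, with the 1 tested, flt1, higher. Over all tested accessions 16.4% were called and 7.9% were higher, and the neural and endothelium counts rest on 5 and 1 tested members. Among notochord genes, tbxta, a transcription factor gene, was highest in replicates 1 and 2, at 54.7 and 27 CPM against 0 to 5.53 CPM in the other actl6a libraries and 0 to 3.94 CPM in controls. The notochord gene noto was at 54 CPM in replicate 2 and at 1.66 CPM in replicate 1. Without both libraries the mean summed level of the class exceeded that of controls by 0.41 on the log2 scale, against 1.14 with them, and col9a1b was still called, at 2.76 (adjusted p = 0.0143), in a fit that called 10.7% of all accessions.

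Lists of notochord and cartilage markers were set beside these collagens, and their members, shha and foxa2 included, need not be made in those tissues alone. Of 11 listed notochord symbols 7 were counted, and their sum was 1.9, 7.56 and 86.2 CPM at the lowest, median and highest control and 13.5, 39.8 and 133 CPM in actl6a libraries. The sums were 103, 133 and 113 CPM in actl6a replicates 1, 2 and 5 and 86.2 CPM in control replicate 7, and type IX collagen in these libraries was 261, 188, 17.3 and 14.8 CPM. In actl6a replicate 5 and control replicate 7 the sum came mostly from shha, at 83.2 and 61.1 CPM, and foxa2, at 24.3 and 17 CPM. There tbxta was at 0 and 2.89 CPM, against 54.7 and 27 CPM in actl6a replicates 1 and 2. The sum thus does not follow a single notochord gene across these libraries. Only shha passed the filter, and it was not called (log2 fold change 1.56 ± 0.816, adjusted p = 0.2). Its highest values, 61.1 CPM in control replicate 7 and 83.2 CPM in actl6a replicate 5, fell in a library with high col2a1a and in one with 9.6 CPM of it. The gene tbxta had no count in control replicates 2, 4 and 9 and actl6a replicate 5, noto none in control replicate 4 and actl6a replicate 4, and ihhb 1 count in all. Cartilage markers, 6 of 10 symbols counted, summed to 5.85 to 42.6 CPM in controls and 32.4 to 106 CPM in actl6a libraries. Neither of the 2 tested cartilage markers, sox9a and snorc, was called. Of the untested ones, the structural cartilage gene matn3a was at 0 in every control and 11 counts in actl6a libraries. Summed counts in controls and actl6a libraries were 1 and 65 for cnmd, 8 and 63 for sox9b and 1 and 8 for hapln1b. The part of notochord and cartilage RNA in these collagen levels was not tested apart from the covariate fits that follow. There the notochord score rested on shha alone.

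Marker scores were mean log2 values of the members that passed the filter, so the notochord score was shha alone. The cartilage score was sox9a and snorc, and tbxta, noto and foxa2 did not enter any score. With the notochord, mesenchyme and cartilage scores as covariates, the log2 fold change of col9a1b was 3.73 (adjusted p = 0.157). That of col9a2 was 0.55 (0.861) and that of col28a1a -1.47 (0.0708). With scores of skeletal muscle, blood, epidermis and neural markers instead, they were 0.87 (0.6), -0.73 (0.72) and -1.45 (0.119). No collagen was called in either fit, in which 1.05% and 1.06% of all accessions were called. Some members of the scores were themselves called higher in actl6a libraries: 1 mesenchyme, 3 epidermis and 2 neural markers. The scores thus partly follow the morpholino groups, and these fits cannot tell RNA of other tissues from the knockdown. The sign of col28a1a was the same under both sets of covariates, while that of col9a2 changed under the second.

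**Figure D4:**
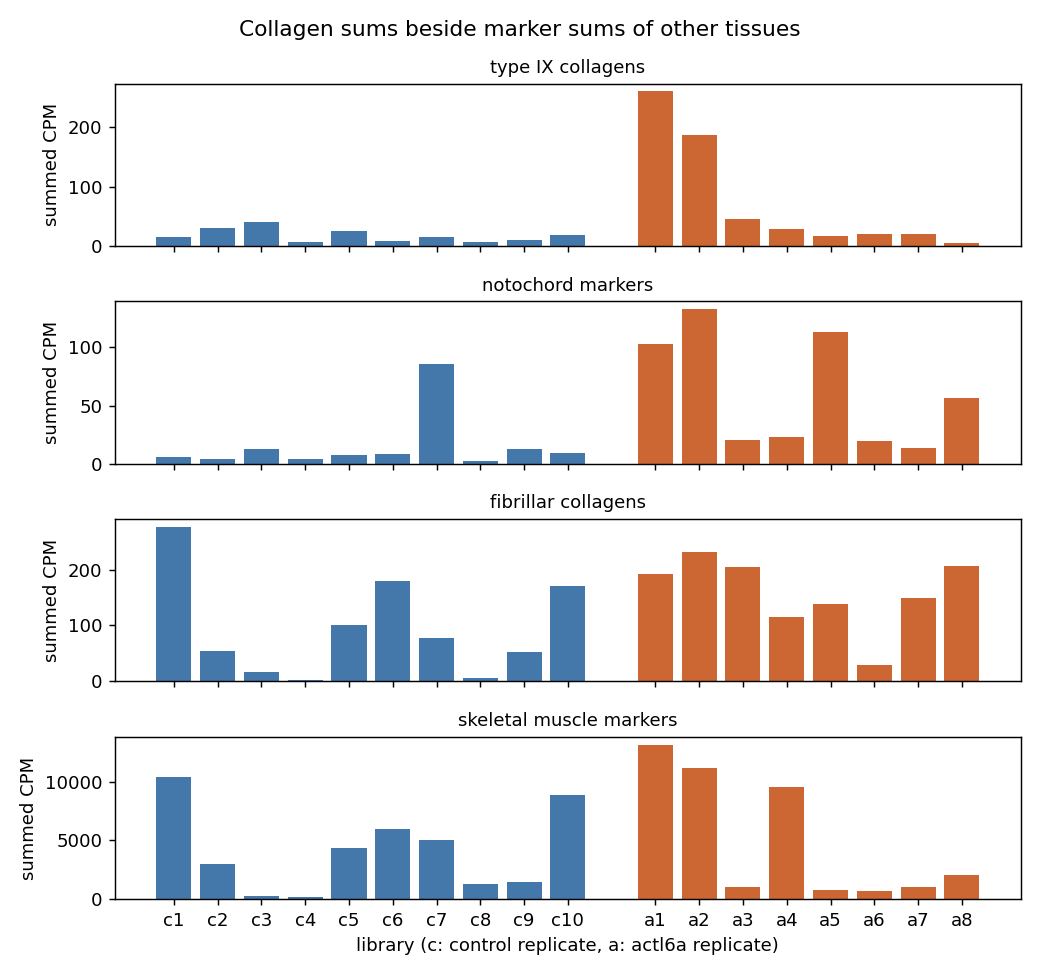
Summed CPM per library (y axes, linear) of type IX collagens, notochord markers, fibrillar collagens and skeletal muscle markers, for control (c, blue) and actl6a (a, orange) replicates. Type IX sums are highest in a1 (261 CPM) and a2 (188 CPM), and fibrillar sums are lowest in c4 and c8, where muscle sums are 191 and 1281 CPM.

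The other collagens included the strongest decrease. Collagen XXVIII has von Willebrand factor A domains at its ends and in mice is known from sheaths around peripheral nerves. For col28a1a (NM_001348047.1) controls had 41.8, 76.9 and 100 CPM at the lowest, median and highest library, and actl6a libraries 11.6, 19.6 and 42 CPM. Of the actl6a libraries 7 of 8 lay below every control, and replicate 7, at 42 CPM, exceeded only control replicate 8. The log2 fold change was -1.71 ± 0.263 (SE, adjusted p = 3.80e-04). The libraries that stood apart in the other classes had these levels of col28a1a: control replicates 3, 4 and 8, low in fibrillar collagen, had 100, 58.5 and 41.8 CPM, and actl6a replicates 1 and 2, high in type IX, had 11.6 and 19.8 CPM. It stayed past the threshold in 18 of 18 fits that each left out 1 library, with fold changes from -1.90 to -1.61.

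The tested paralogue of col28a1a did not fall with it. The related gene col28a2a (NM_001159842.2) was at 0, 2.95 and 23.5 CPM in controls and 0.559, 16.3 and 72.6 CPM in actl6a libraries, with a log2 fold change of 2.09 ± 0.765 (adjusted p = 0.066). Among actl6a libraries 3 exceeded every control and 2 lay below the control median. The gene passed without control replicate 10 (2.79, adjusted p = 0.0181), without actl6a replicate 5 (adjusted p = 0.049) or 6 (0.0355), and by DESeq2 (2.14, 0.0223). Of the 18 fits that left out 1 library it thus passed in 3, and the highest adjusted p was 0.182. It also passed with replicates 1 to 8 only and no replicate block (2.68, adjusted p = 0.0312). Without actl6a replicates 1 and 2 it was 1.55 (adjusted p = 0.228). Another paralogue, col28a1b, had 12 counts in controls and 27 in actl6a libraries, 13 of them in replicate 5. It was too low to test, so a fall could not have been seen. The paralogue col28a2b had no accession matched here.

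Of the fibril-associated collagens placed in this class none was called. Type XXII collagen marks junctions of muscle with tendon, and col22a1 (NM_001291376.1) ran from 0 through 4.27 to 36.5 CPM in controls and from 0 through 1.7 to 20.6 CPM in actl6a libraries. Its 3 high actl6a libraries, replicates 1, 2 and 4 at 20.6, 19.8 and 18.4 CPM, were the 3 with the most skeletal muscle RNA, at 13141, 11149 and 9557 CPM of summed markers. The log2 fold change was -0.18 ± 0.896 (adjusted p = 0.915), and without control replicate 10 it was 0.43. For col12a1a, of dense connective tissue, the means were 6.74 ± 4.58 and 9.49 ± 4.11 CPM (log2 fold change 0.49 ± 0.557, adjusted p = 0.585), and for col14a1a (XM_009292164.3) 3.25 ± 2.23 and 5.81 ± 3.21 CPM (0.80 ± 0.485, 0.27). Type XVII, the hemidesmosome collagen of skin, was seen as 1 count of col17a1a and 8 of col17a1b. Type VI was seen as 1 count of col6a2, with col6a1 and col6a3 not matched here. The genes col26a1 and col19a1 had 17 and 13 counts in controls and 32 and 6 in actl6a libraries.

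**Figure D5:**
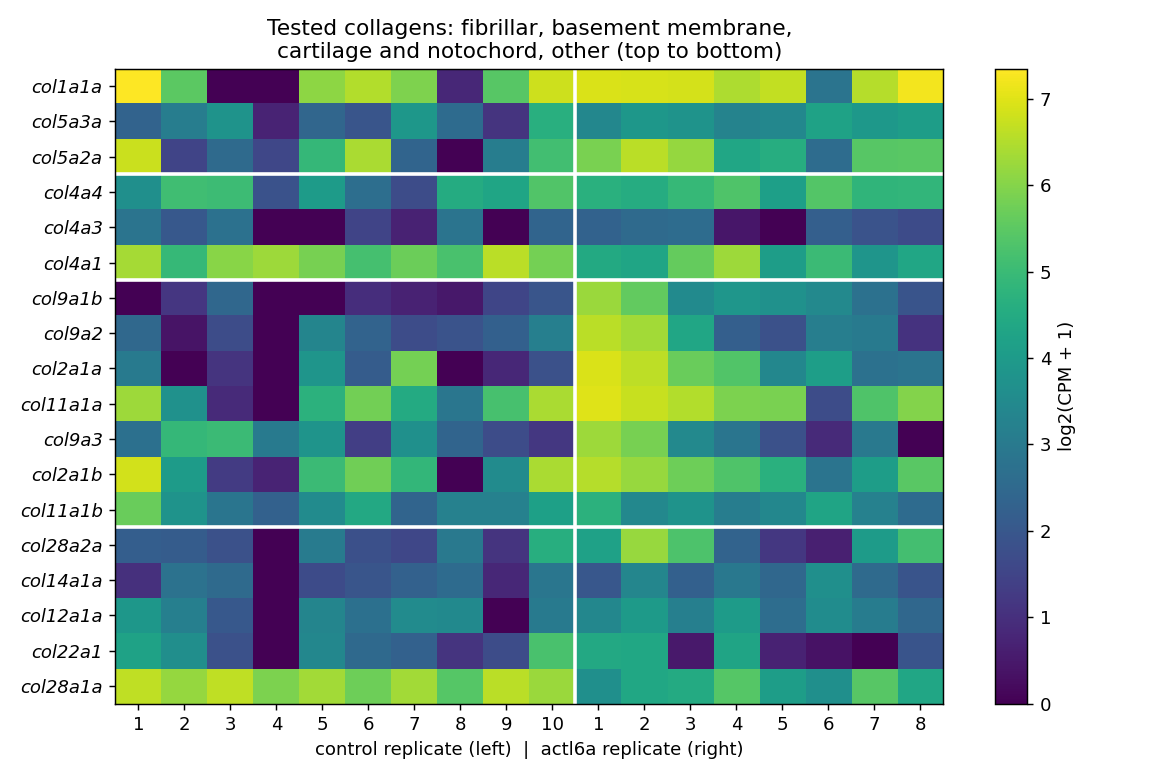
log2(CPM + 1) of the 18 tested collagen accessions (rows, by class) in 10 control (left) and 8 actl6a (right) libraries, with brighter colours for higher values. The col28a1a row is brighter on the left (75.2 CPM on average against 22.9), and col9a1b, col9a2 and col2a1a are brightest in actl6a replicates 1 and 2.

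Genes that fold, modify and export collagen were taken from a list of 43 symbols, of which 29 accessions were tested. Of these, 4 were higher and 5 lower in actl6a libraries, 31% of those tested against the 16.4% background, and their median log2 fold change was -0.02 against 0.01 over all accessions. These enzymes and carriers serve many secreted proteins in epithelial cells. The COPII coat gene sec23a fell from 82.4 ± 10.6 to 48.1 ± 14.1 CPM (-0.78 ± 0.152, adjusted p = 0.00229), and serpinh1a, encoding a collagen chaperone of the HSP47 type, fell from 128 ± 30.7 to 85.8 ± 11.6 CPM (-0.57 ± 0.133, adjusted p = 0.00696). The lysyl hydroxylase gene plod1a rose from 99.9 ± 16.3 to 136 ± 15.9 CPM (0.45 ± 0.102, adjusted p = 0.00622), and the prolyl hydroxylase gene p4ha1b from 102 ± 20.2 to 165 ± 62.7 CPM (0.69 ± 0.186, adjusted p = 0.0161). The other called members were kdelr3 and fkbp14, higher, and sec23b, mia3 and colgalt1a, lower. Of the 18 fits that left out 1 library, kdelr3 passed in 17, mia3 in 14, sec23b and colgalt1a in 12 and fkbp14 in 8, and with accessions summed per symbol sec23b was -0.58 (adjusted p = 0.105). The product of mia3 is a cargo receptor that loads collagen into COPII carriers, and that of colgalt1a adds galactose to its hydroxylysines.

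Of genes that process and crosslink collagen outside the cell, 14 of 33 counted accessions were tested, 2 were higher and none lower, with a median of 0.40. The 14.3% called is near the 16.4% over all accessions. The procollagen C-proteinase enhancer gene pcolce2a rose from 9.09 ± 5.49 to 22.6 ± 9.52 CPM (adjusted p = 0.0321), and the transglutaminase gene tgm2b from 57 ± 25.2 to 99.8 ± 22.7 CPM (0.80 ± 0.269, adjusted p = 0.0475). Of the 18 fits that left out 1 library, pcolce2a passed in 12 and tgm2b in 5. Of non-collagen basement membrane genes 17 were tested and 1 was higher, tinagl1, a tubulointerstitial nephritis antigen relative, at 41.3 ± 11.7 and 66.5 ± 12.4 CPM (0.68 ± 0.167, adjusted p = 0.00953). The other 16 did not pass, so that 5.88% of the list was called against 16.4% of all accessions, and the list's median was 0.10.

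Of 6 tested collagen receptor genes 1 fell and 1 rose, 33.3% against 16.4% of all accessions, with a median of -0.28. The integrin beta1 gene itgb1b.1 had 17.6 to 55.6 CPM in controls and 5.31 to 17.2 CPM in actl6a libraries, so that the groups did not overlap. The change was -1.47 ± 0.269 on the log2 scale (adjusted p = 0.00142). This gene has close copies among zebrafish beta1 integrins, and how reads shared between copies were counted is not given in the sources used here. The gene antxr2a, for a receptor that binds type IV collagen and laminin, rose from 5.74 ± 5.81 to 18.6 ± 7.38 CPM (1.73 ± 0.543, adjusted p = 0.0352), a call kept in 9 of 18 fits that left out 1 library.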

How the data were processed

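Deposited values were raw counts per RefSeq accession, in 1 table per group. Per the submitters' processing notes the authors used cutadapt, FastQC, STAR, featureCounts and edgeR with build GRCz11, with no versions. Strand settings and the handling of multimapping reads are not given in the sources used here. Accessions missing from 1 table (4245) were taken as 0 there. Symbols came from the RefSeq gene table of another assembly (GRCz12tu, used for names and neighbours only): 10586 accessions matched with their version, 9629 without, and 12605 had no symbol; 87.59% of counts had one.

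Counts were tested with edgeR 4.0.16 in R 4.3.3 (filterByExpr, TMM factors, quasi-likelihood test, two-sided, Benjamini-Hochberg over 14462 accessions, threshold 0.05). The biological coefficient of variation was 47.81%, and 98.25% of counts were kept. CPM used TMM-scaled totals. Standard errors were the fold change divided by the root of F. The procedure was tested on simulated data with 200 changed genes. DESeq2 1.42.0, limma 3.58.1 and other settings served as alternatives, including 2 added after seeing the data. Floors cover counting error only, while standard errors and SDs also hold the spread between libraries.

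The named genes were every called collagen, the 3 with the highest mean CPM in each class, those with an adjusted p from 0.05 to 0.10, and up to 4 called members per matrix list; the remaining tested collagens and the counts of untested ones were added to account for every member. The members and lists were chosen with earlier results of these data known.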

Additional observations from a re-analysis of the deposited data

Results flagged for a closer look

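Of 38 sets of values, each a gene or class sum within 1 group, 3 held a library separated from the rest by Dixon's criterion. It was taken on log2(CPM + 1) values and flags about 1 in 20 sets by chance. All were low values of actl6a replicate 6. On the log2 scale low values stand out more than on CPM itself, and high values less. The fibrillar sum contains col1a1a, so those 2 flags are not separate. In that library col1a1a was at 6.15 CPM, where the next lowest actl6a library had 86.6 CPM. The same library had 2.24 CPM of col11a1a against 39.3 CPM in the next, and a summed fibrillar level of 29.3 CPM against 116 CPM. Its col28a1a (11.7 CPM) and col9a1b (10.1 CPM) lay within the range of the other actl6a libraries. It also had the lowest skeletal muscle marker sum of its group, 676 CPM, and the part of muscle RNA in these values was not tested.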

How the results depend on the processing

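Against 3 called collagens, 2 higher and 1 lower, DESeq2 called 5 (2 lower), library totals and limma-voom with sample weights each called 2 lower, and both marker covariate fits called 0, with 0 higher and 0 lower. With the muscle, blood, epidermis and neural scores 154 accessions and 0 matrix list members were called, and with the notochord, mesenchyme and cartilage scores 152 and 2, against 2375 and 14. Those scores turned col11a1a to -0.90, col2a1b to -1.65, col1a1a to -1.17 and tgm2b to -0.0021, and the first set turned col4a3 to -0.12, col9a2 to -0.73 and col28a2a to -0.22. Without actl6a replicates 1 and 2 together 1 collagen was higher, 8 matrix members were called, and col4a3 (-0.21) and col2a1b (-0.18) changed sign. Library totals turned col4a3 to -0.01. Without a filter 7 matrix members were called. A filter of at least 1 CPM in at least 8 libraries kept 18765 accessions and called 12% of them. With it 4 collagens were called, 3 of them higher. Leaving out 1 library gave 2 to 4 called collagens, 1 to 3 higher and 1 to 2 lower, 1876 to 2417 accessions, and 8 to 15 matrix members, with col4a3 from -0.09 to 0.23 and col22a1 from -0.56 to 0.43. Here col4a3 passed the filter in 14 fits and was below 0 in 7 of them, and col22a1 was above 0 in 4 of 18. Without control replicate 3 col9a1b did not pass the filter, and it was called in the other 17 fits. The cause of these changes was not tested.

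The labels give no pairing by replicate number. Correlations between same-numbered libraries, taken on deviations from group means, ran from -0.119 to 0.324, over 0.1 in 1 of 8 pairs. They cannot show whether such libraries shared a clutch or an injection. With a replicate block over replicates 1 to 8, 1 collagen was higher, 1058 accessions and 6 matrix members were called, and col9a2 was 2.18 (adjusted p = 0.195). The same libraries with no replicate block gave 1850 called accessions, 4 called collagens of which 3 were higher, 8 matrix members and 0.32 for col22a1. Over all these settings together, 369 values of single named collagens kept their direction and side of the threshold, 9 were no longer past it, 14 were newly past it and 21 reversed. For the called matrix list members 306 values kept both, 113 were no longer past the threshold and 1 reversed. The filterByExpr filter left 22 collagens with no test, whose totals were 1 to 245 counts over 18 libraries.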
